A study of Homo sapiens with 2 samples.

Results

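PVT1, OIP5-AS1, KCNQ1OT1 and DIO3OS are 4 regulatory long noncoding RNA genes, and their annotated bodies held 12 of the 2960 deletion sites listed from SF3A1 crosslinking and immunoprecipitation in C4-2B cells. PVT1 held 9 of them, and OIP5-AS1, KCNQ1OT1 and DIO3OS held 1 each. The genes were chosen by the listed sites themselves and, for DIO3OS, by the height of its site, so their counts are a description and carry no test. The data come from crosslinking and immunoprecipitation with an antibody to SF3A1, a subunit of the U2 small nuclear ribonucleoprotein that recognises the branch point of introns. C4-2B is an established prostate cancer epithelial line, here in a form made ready for CRISPR interference. Both libraries (n = 2, 1 group, no control group in the labels) were irradiated at 254 nm with 400 mJ/cm2, 48 h after seeding, and 2 µg of antibody was used. The deposited list pools both libraries, so no value below has a spread between replicates.

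Each listed position is a base at which sequenced tags carry a deletion, a mark that reverse transcriptase can leave when it skips a crosslinked base. Whether each listed deletion, including those present in every tag, marks a contact with SF3A1 or has another origin was not tested. No control library and no genome sequence of the cells was analysed here. A site has a number of tags over the base and a number of those with the deletion, and the deleted share is the second divided by the first. Intervals are exact 95% Clopper-Pearson intervals and cover counting error only. The list starts at 13 deleted tags and has a median of 50. All listed sites together had 246057 tags, 213787 of them deleted, and depth per library is unknown.

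Long noncoding RNAs are transcripts without a long reading frame, often spliced, and several act close to the gene that makes them. PVT1 is the neighbour of the MYC oncogene, is often amplified with it in cancer and hosts several microRNAs. OIP5-AS1, also called cyrano, is a conserved transcript known for driving the decay of the microRNA miR-7. KCNQ1OT1 is a long, mostly unspliced imprinted transcript that runs antisense through the potassium channel gene KCNQ1 and silences nearby imprinted genes in cis. DIO3OS runs opposite to DIO3, the thyroid hormone inactivating deiodinase gene of another imprinted domain.

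PVT1 (gene ID 5820, RefSeq GRCh38, chr8:127794524-128101256, 306.7 kb, 51 annotated transcripts) held its 9 sites on the plus strand, the strand on which PVT1 is transcribed. The reference tables used here give no exons, so exonic and intronic positions were not told apart. The first site, at 127801183, lay 6.66 kb into the body and had the deletion in all 31 of its tags. The second, at 127859719, was deleted in 30 of 30 tags, and the third, at 127891694, in 103 of 103. With PVT1 divided into 3 stretches of equal length, these are the only 3 sites in the proximal stretch.

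A stretch of 97.1 kb, or 31.7% of the PVT1 body, followed without a listed site. It ended at the fourth site, at 127988828, which differed from the rest: 58 of its 167 tags carried the deletion, a share of 34.7% (95% interval 27.5 to 42.5). It was the most covered of the 9 sites and the only one with a share under 90%. The next lowest share in PVT1 was that of the seventh site, at 128042182, with 85 of 89 tags or 95.5% (88.9 to 98.8). The fourth site was singled out for its low share, so the gap between these sites is a description and no test. Both intervals cover counting error only.

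The distal end of the gene held most of the sites. The fifth site, at 128001794, was deleted in 25 of 25 tags, the lowest count of the 12. The sixth, at 128014622, had 82 of 82 and the eighth, at 128061416, had 123 of 123, the highest deleted count in PVT1. The ninth, at 128096367, was deleted in 66 of 66 tags and lay 4.89 kb before the annotated 3′ end. Thus 5 sites lay in the distal stretch, 1 in the middle and 3 in the proximal stretch. Deleted tags summed to 164 in the proximal stretch and 439 in the other two.

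**Figure D1:**
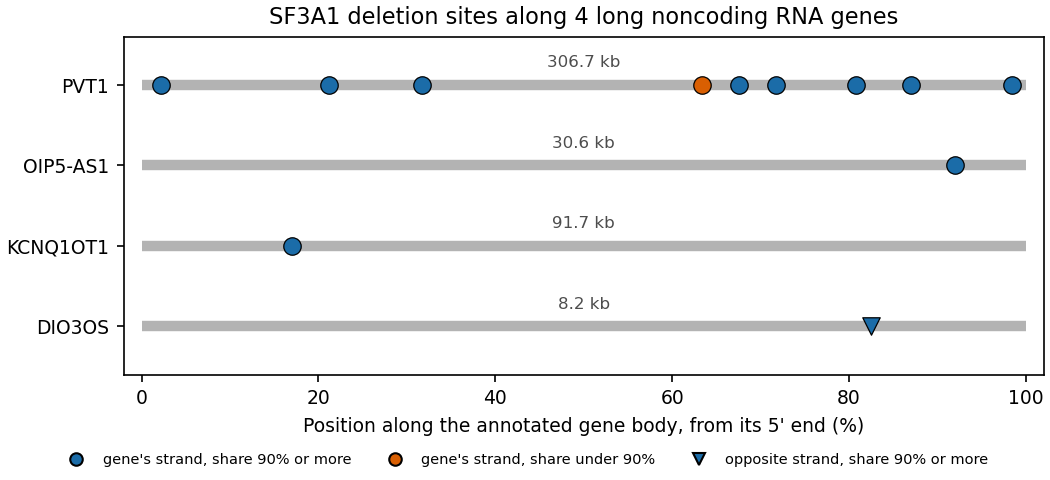
Position of each of the 12 sites along its annotated gene body, in percent of the body from the 5′ end, 1 bar per gene with its length in kb; circles lie on the strand of the gene, the triangle on the opposite strand, and orange marks a deleted share under 90%. The 9 PVT1 sites run from 2.17% to 98.4% of the body, and the DIO3OS site is the only one on the strand opposite to its gene. The strands of PVT1 and KCNQ1OT1, and so their 5′ ends, are background knowledge and not read from the reference.

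Sites in PVT1 were far apart. Neighbours lay a median of 29.8 kb from each other, with the closest pair, the fifth and sixth sites, at 12.8 kb. No pair lay close enough to be joined when sites within 50 nt were merged. The sites were scattered single bases over nearly the whole annotated body, with 96.2% of it between the first and the last. None fell in the microRNA genes MIR1204, MIR1205, MIR1206 and MIR1207, which lie inside the PVT1 body. The nearest sites were 5.16 kb from MIR1204, 28.1 kb from MIR1205, 5.67 kb from MIR1206 and 6.97 kb from MIR1207.

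PVT1 sites spanned much of the list in coverage: 18.5% of listed sites had fewer tags than the least covered of them and 91.8% fewer than the best covered. Deleted counts had a lowest value of 25, a median of 66 and a highest of 123, a 4.92-fold range, and 6 of the 9 exceeded the median of the whole list. The deletion was present in every tag at 7 of the 9 sites. Over the gene, 603 of 716 tags were deleted, or 84.2% (81.3 to 86.8). The fourth site supplied 109 of the 113 tags without the deletion; without that site the share was 99.3%, from 545 of 549 tags.

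The fourth site, deleted in part of its tags, can be set against sites of similar coverage. Among the 476 listed sites with between 1.5 times fewer and 1.5 times more tags, 23 (4.83%) had a share as low or lower, and 288 (60.5%) were deleted in every tag. The fourth site is itself among the 476 and the 23. It was picked as the lowest share in PVT1, so the 4.83% is a description and no test. In long noncoding gene bodies other than these 4, 6 of 42 sites in that range of coverage had a share as low or lower. That set includes MALAT1, where 15 of 17 sites had a share under 90%. How many of the 6 lie in MALAT1 was not counted.

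**Figure D2:**
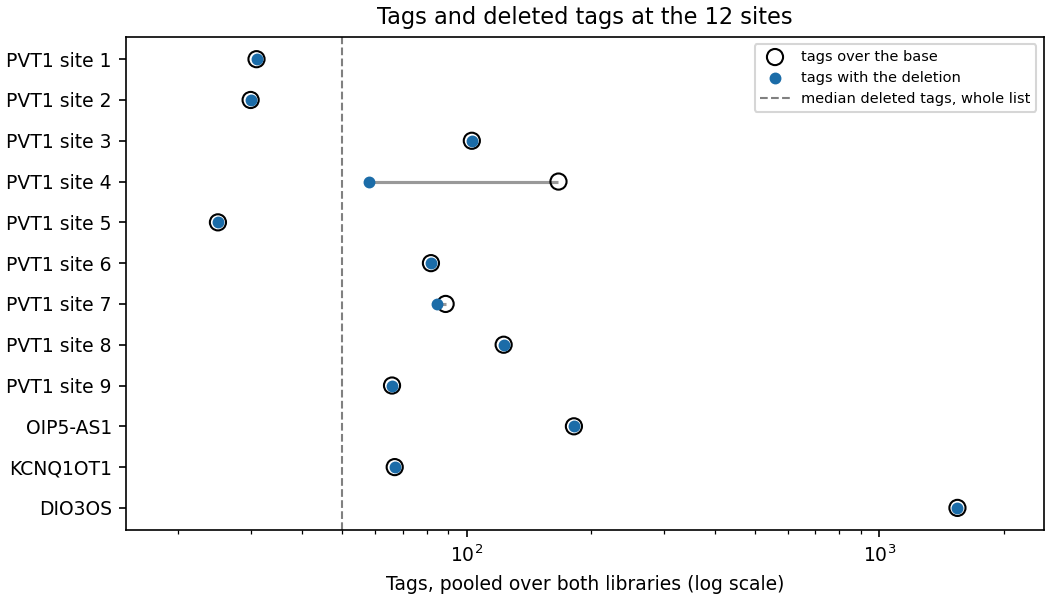
Tags over the base (open circles) and tags with the deletion (filled circles) at each of the 12 sites, pooled over both libraries, on a log axis; the dashed line is the median deleted count of the whole list. The circles coincide at 10 sites, part slightly at the seventh PVT1 site and part widely at the fourth (58 of 167), and the DIO3OS site stands far to the right at 1545.

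No other listed site lay near PVT1. The closest outside the body were in TATDN1, 3.28 Mb before its start with 14 of 14 tags deleted, and in CYRIB, 1.78 Mb beyond its end with 37 of 37, both on the minus strand. PVT1 covers 5.72% of this stretch of 5.36 Mb, which also holds 73 other annotated genes that lie wholly inside it, 11 of them protein-coding and 37 long noncoding. Of 14 neighbouring genes listed for the locus, none held a site, where 3.87% of all nuclear genes did, and none of the 9 sites lay in a second annotated gene. At that background the absence of sites in 14 genes says nothing about them. Among the 14 are MIR1204, MIR1205, MIR1206 and MIR1207, which lie inside the PVT1 body. The list names only positions past the authors' FDR of 10 percent, so a gene without a site may still have been covered by tags. The deposited list does not measure RNA abundance, and in bulk cells more RNA and more contact per RNA cannot be told apart.

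By number of sites PVT1 ranked 4 among 18010 annotated long noncoding genes, of which 215 (1.19%) held a site on either strand; among all nuclear genes the share was 3.87%. Both shares use the measure that chose the 4 genes and support nothing about them. The other genes with at least 5 sites were MIR99AHG with 25, MALAT1 with 17 and NEAT1 with 15. All 4 had their sites on 1 strand. PVT1 was the least dense of them, with 2.93 sites per 100 kb against 4.45 in MIR99AHG, 66.0 in NEAT1 and 194 in MALAT1. Of the 518 long noncoding genes with 0.5 to 2 times the length of PVT1, 39 (7.53%) held a site, and MIR99AHG and PVT1 were the 2 with 9 or more.

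**Figure D3:**
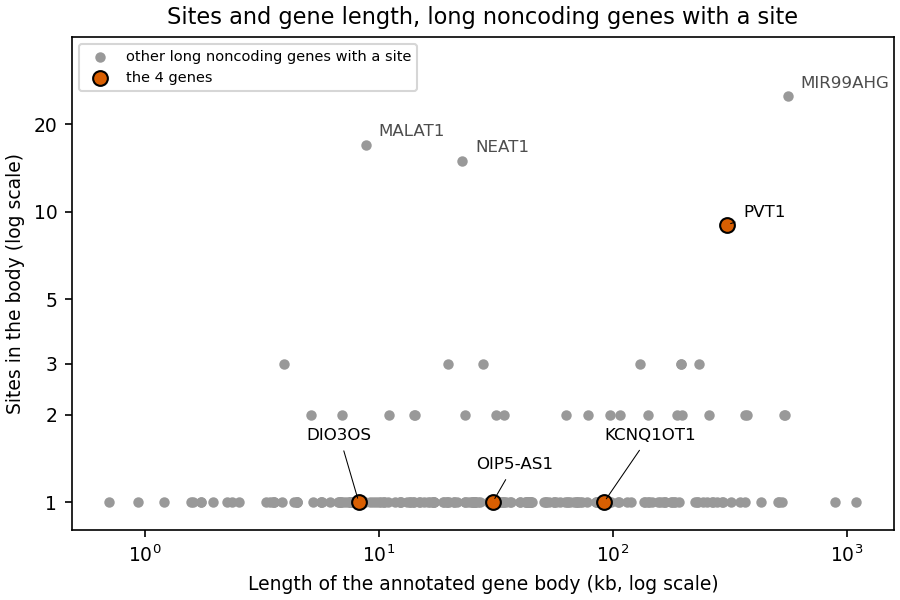
Sites in the body against gene length in kb, both on log axes, for the 215 long noncoding genes with at least 1 site; orange points are the 4 genes described here. PVT1, with 9 sites in 306.7 kb, stands with MIR99AHG above other long genes, while OIP5-AS1, KCNQ1OT1 and DIO3OS lie in the row of 184 genes with 1 site.

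OIP5-AS1 (gene ID 729082, chr15:41282697-41313338, 30.6 kb, 4 annotated transcripts) held 1 site, at 41310876 on the plus strand. All 182 tags over it carried the deletion (98.0 to 100% by the interval), more deleted tags than at 94.9% of listed sites. It lay 28.2 kb into the body, or 92.0% of the way along, and 2.46 kb before the annotated 3′ end. This end overlaps the 3′ end of OIP5, a gene for a centromere protein, by 4066 nt, and the site falls 1.60 kb inside OIP5. The RefSeq promoter table places OIP5-AS1 on the plus and OIP5 on the minus strand, so the site is on the strand of OIP5-AS1 and opposite to OIP5. At 3.26 sites per 100 kb the density is that of 1 site; 65 of 4681 long noncoding genes of 0.5 to 2 times its length held a site.

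The strand of OIP5-AS1 rests on its promoter entry in the RefSeq table of GRCh38.p14, chr15:41283740-41284039, plus strand, shown here with the bases from the start that this entry uses in capitals. That start is one of several: the whole window lies inside the annotated gene body, which begins at 41282697:
OIP5-AS1 promoter: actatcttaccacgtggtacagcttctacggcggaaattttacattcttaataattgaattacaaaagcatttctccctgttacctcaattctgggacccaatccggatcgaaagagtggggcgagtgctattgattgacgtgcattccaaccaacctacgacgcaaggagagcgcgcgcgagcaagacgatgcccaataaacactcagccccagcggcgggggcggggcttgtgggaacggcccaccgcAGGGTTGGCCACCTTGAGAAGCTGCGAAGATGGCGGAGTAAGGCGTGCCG
Its GC content was 54.3%, against a median of 58.7% over the 35116 entries of the table, with 23 CpG pairs against a median of 14. The site lay at the other end of the gene, and no listed site fell in this window.

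Within 500 kb of the OIP5-AS1 body there were 4 other listed sites. The nearest were 1 in CHP1, which encodes a calcineurin-like calcium-binding protein, 32.4 kb before the body with 65 of 65 tags deleted, and 1 in NUSAP1, a spindle protein gene, 59.8 kb beyond it with 23 of 168. Of the 10 neighbouring genes listed for this locus, 3 (30%) held a site, against 3.87% of all nuclear genes: OIP5, through the shared position, CHP1 and NUSAP1. OIP5 counts only through the site that chose OIP5-AS1. These neighbours were listed with earlier results known, so nothing is read from their count. The NUSAP1 and OIP5-AS1 sites had similar coverage, 168 and 182 tags, but the deletion was in a minority of tags at the first and in every tag at the second.

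KCNQ1OT1 (gene ID 10984, chr11:2608328-2699994, 91.7 kb, 1 annotated transcript) held 1 site, at 2684437 on the minus strand, with the deletion in all 67 tags (94.6 to 100%). The whole KCNQ1OT1 body lies inside that of KCNQ1 (chr11:2445008-2849105), so the position is in both genes. KCNQ1OT1 is transcribed opposite to KCNQ1, from the minus strand, so the site is on the strand of KCNQ1OT1. Counted from the 5′ end of KCNQ1OT1 it lay at 15.6 kb, or 17% of the body. Its deleted count exceeded that of 62.5% of listed sites.

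Of 17 neighbouring genes listed for the imprinted domain of KCNQ1OT1, 4 (23.5%) held a site, against 3.87% of all nuclear genes, and KCNQ1 did so only through the shared position. The others were the tetraspanin gene CD81 (83 of 83 tags, plus strand), the transporter gene SLC67A1, earlier SLC22A18 (16 of 16, plus), and the histone chaperone gene NAP1L4 (97 of 98, minus). The nearest of them to the body were CD81, 211 kb away, and SLC67A1, 216 kb away on the other side. KCNQ1 counts only through the site that chose KCNQ1OT1, and the neighbours were listed with earlier results known. Nothing is read from the count of 4. Of the 2001 long noncoding genes with 0.5 to 2 times the length of KCNQ1OT1, 51 (2.55%) held a site.

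DIO3OS (gene ID 64150, chr14:101552221-101560422, 8.20 kb, 6 annotated transcripts) held the third most deleted site of the whole list, and this site was on the strand opposite to the gene. At 101553659 on the plus strand, 1545 of 1545 tags carried the deletion (99.8 to 100%). The count exceeds that of 99.9% of listed sites and the other 11 sites of these genes together, which had 852 deleted tags. The promoter table places DIO3OS on the minus strand. Read along DIO3OS, the position is 6.76 kb from the 5′ end and 1.44 kb from the 3′ end.

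No other annotated gene covered the DIO3OS site. The nearest plus-strand genes in the promoter table were LOC105370674, a long noncoding gene that ends 5.70 kb before it, and DIO3 (chr14:101561495-101563452), which starts 7.84 kb beyond it. The site is thus upstream of DIO3 on the strand of DIO3 and inside the body of DIO3OS on the other. The next listed site lay 296.6 kb beyond the body, in PPP2R5C, which encodes a phosphatase subunit, with 111 of 113 tags deleted. In the other direction it lay 1.96 Mb away. Of 10 neighbouring genes listed for this imprinted domain, PPP2R5C was the 1 (10%) with a site, against 3.87% of all nuclear genes. MEG3, DLK1 and DIO3 had none. At that background the absence of a site says nothing about these genes. The neighbours were listed with earlier results known, so nothing is read from their count.

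The strand of DIO3OS was read from its promoter entry, chr14:101560373-101560672, minus strand. The microRNA gene MIR1247 lies at the 5′ end of the DIO3OS body (chr14:101560287-101560422), also on the minus strand, and was not used to set the strand of DIO3OS. The promoter is shown with the transcribed bases in capitals, and both mature microRNAs with the seed, bases 2 to 8, in capitals:
DIO3OS promoter: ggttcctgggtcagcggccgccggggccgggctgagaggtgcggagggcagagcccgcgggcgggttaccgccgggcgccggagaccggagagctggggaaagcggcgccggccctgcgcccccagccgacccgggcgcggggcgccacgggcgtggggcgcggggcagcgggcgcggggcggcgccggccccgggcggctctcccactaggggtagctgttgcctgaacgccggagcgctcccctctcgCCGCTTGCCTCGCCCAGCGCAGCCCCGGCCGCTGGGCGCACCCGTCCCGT
hsa-miR-1247-5p: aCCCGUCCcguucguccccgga
hsa-miR-1247-3p: cCCCGGGAacgucgagacuggagc
The arms of miR-1247 have different seeds. The DIO3OS window has a GC content of 81.7%, higher than 98.6% of the entries in the table, and 46 CpG pairs. The listed position was 6.63 kb from MIR1247 and on the other strand, so these sequences are not those of the RNA that carried the deletions; the sequence at the site itself was not analysed here.

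Sites opposite to their gene were a minority elsewhere. Counting sites in exactly 1 annotated gene body whose strand the promoter table gives, 12 of 80 long noncoding sites (15%, 8.0 to 24.7) and 66 of 1944 protein-coding sites (3.40%, 2.64 to 4.30) were opposite. Some of these sites share a gene, while the intervals treat them as independent. The DIO3OS site, 1 of those 12, had more deleted tags than the other 11; LOC105376626 followed with 989 and ZNF652-AS1 with 263. With only OIP5-AS1 and DIO3OS in the promoter table, the strand of PVT1 and KCNQ1OT1 above is background knowledge and not read from the reference.

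As a set, the 12 sites were mostly complete deletions, as was the list. The deletion was in every tag at 10 of 12 sites (83.3%, 51.6 to 97.9), against 204 of 288 sites (70.8%, 65.2 to 76.0) in other long noncoding gene bodies and 75.8% of all 2960 sites. These intervals treat sites as independent, though 9 of the 12 lie in PVT1, and the genes were chosen by their sites. The shares are therefore a description and no test. A share under 90% occurred at 1 of 12 sites, the fourth of PVT1, against 43 of 288 (14.9%) and 7.50%. MALAT1 supplied 15 of those 43 sites; without it the comparison set had 28 of 271 (10.3%). Pooled over the 12 sites, 2397 of 2510 tags were deleted, or 95.5% (94.6 to 96.3); DIO3OS alone supplied 1545 of these tags, and without it the share was 88.3%.

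A wider list of 40 regulatory long noncoding RNAs was drawn up for context, with earlier results of these data known. Of the 36 beyond these 4 genes, 10 (27.8%) held a site, against 1.19% of all long noncoding genes; the list includes MIR99AHG, MALAT1 and NEAT1, already known to hold the most sites, so nothing is read from its count. The others were the snoRNA host SNHG1 with 3 sites, GAS5 and ZFAS1, also snoRNA hosts, with 2 each, and CRNDE, DANCR, MIR17HG and LINC-PINT with 1 each. The promoter table gives a strand for 9 of these 10 genes, and in all 9 every site lay on it; DIO3OS was the exception in the list. For the cell type label, 5 of 9 prostate luminal markers held a site, KLK3 with 4 and KLK2, TMPRSS2, FOLH1 and FOXA1 with 1 each. HOXB13, KRT8, KRT18 and STEAP2 held none. Of markers of basal, neuroendocrine, blood or stromal cells, 0 of 10 held a site, against 3.87% of all nuclear genes. At that background a count of 0 of 10 says nothing about those cell types. The markers too were listed with earlier results known, so nothing is read from the 5 of 9.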

How the data were processed

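The deposited file lists single-base deletion sites. Its name says that unique tags were used, that libraries were pooled, and that crosslink-induced mutation sites (CIMS) were kept up to 10 percent FDR. Per the file, each site has a deposited count of deleted tags; the site's name repeats this count (equal at 2960 of 2960 sites) and adds the count of tags over the base. Counts were used as they stand, without normalization. BWA 0.7.17, UMI-tools, cutadapt and SAMtools, and the build hg38, appear in the submitters' processing notes; their roles and settings are not stated there. Sites were placed in the bodies of RefSeq genes of GRCh38.p14, whose primary chromosomes are those of hg38, on either strand and without an expression filter; 58989 of 59792 rows were used. Gene strand came from the RefSeq promoter table, except for PVT1 and KCNQ1OT1, which it lacks and whose strand is background knowledge. Coordinates are 1-based. The members and gene lists were chosen with earlier results of these data known. Named genes were the 4 members with every site, other genes over those sites, genes of the lists with the most sites, and long noncoding genes with at least 5 sites; LOC105376626, ZNF652-AS1, LOC105370674, TATDN1 and CYRIB were named after their values were seen, as neighbours in position or rank. Comparisons by gene length, coverage and strand were likewise chosen after the sites had been seen. One luminal marker is not reported here. No test was made. Site placement and intervals were tested on simulated data. Python 3.11.15, pandas 2.3.3, numpy 2.4.6, scipy 1.17.1 and matplotlib 3.10.9 were used.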

Additional observations from a re-analysis of the deposited data

How the results depend on the processing

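The count of 12 sites in the 4 genes was 11 on the gene's strand alone (where the reference gives it), 12 with sites merged within 50 nt, 9 with more deleted tags than the median, 10 without sites in another gene, and 12 with bodies widened by 1000 nt. It was 1 for a deleted share under 0.9 and 1 under 0.4, both times the fourth PVT1 site. DIO3OS had 0 sites on its own strand, and OIP5-AS1 and KCNQ1OT1 had 0 without sites in another gene, by construction of these settings. The pooled deleted share, 95.5%, was 88.3% on the gene's strand and without DIO3OS, which both remove the same site, 100% without PVT1, and 34.7% for shares under 0.9 or 0.4. It stayed between 95% and 95.5% for the other 5 alternatives. Of the 53 alternative values in all, 35 kept within 1.5 times a count or within the interval of a share, and 18 did not. Many of these outcomes were fixed by the settings. The filters on share keep only the fourth PVT1 site, and no sites lay close enough to merge. The tally is therefore no measure of robustness. Leaving out a library was not possible, since the list is pooled; the 1 site each in 3 genes and the unknown depth per library limit what can be said.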

Other observations

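The name of each site holds an index number that no label or header explains. Among the sites of the genes described here and the nearest listed sites outside them, it rose with position on each chromosome and strand. In PVT1 the index ran from 137 to 157 on the plus strand, 21 numbers of which 9 (42.9%) belong to listed sites.

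Of the 10 sites with the most deleted tags in the list, 5 lay on the strand of the single gene around them, 3 lay opposite to it (in DIO3OS, UBASH3B and LOC105376626), 1 lay in genes of both strands and 1 in a gene whose strand the promoter table does not give. The UBASH3B site, on the minus strand, was deleted in 1418 of 1418 tags, and the LOC105376626 site in 989 of 990.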
